A study of Mus musculus with 4 samples.

Results

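Rag1, Rag2 and Dntt, the 3 lymphoid genes whose products cut and modify antigen receptor genes, were followed in mouse thymocytes. They were chosen by symbol and are 3 of the 32285 genes in the count tables. Single thymocytes had been captured in droplets, and the 3′ ends of their transcripts were sequenced with the version 3 chemistry of 10x Genomics and counted once each through a unique molecular identifier (UMI). Each of the 4 libraries came from 1 mouse aged 6 to 8 weeks. Control libraries came from mice labelled Tox4;F/F, in which both alleles of Tox4 carry loxP sites, and cKO libraries from mice labelled Tox4;F/F;Lck+, which carry the same alleles and an Lck-Cre transgene. The animals were C57BL/6 littermates of matched gender, with 2 libraries per group. The proximal Lck promoter drives Cre in developing T cells from the double negative (DN) stage on, so thymic cells of other lineages keep Tox4, and T cells that escaped deletion are not told apart. The UMIs are counted at the 3′ end of a transcript and do not read the deleted exons, so Tox4 UMIs do not check the deletion. In all double positive (DP) cells Tox4 stood at 71.8 and 74.5 counts per 1000000 UMIs (CPM) in the controls and at 56.7 and 61.1 CPM in cKO mice, a log2 fold change of -0.26 (adjusted p = 0.133, edgeR).

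RAG1 and RAG2 form the recombinase that cuts DNA at the recombination signals beside the V, D and J segments. Terminal deoxynucleotidyl transferase (TdT), the product of Dntt, adds bases without a template to the cut ends, and the ends are then joined by the general non-homologous end joining proteins. In the thymus the β chain gene is rearranged in DN cells, the cells that succeed divide as DP blasts (DPbla), and the α chain gene is rearranged once these have come to rest (DPre), until selection (DPsel) turns the recombinase off. RAG2 protein is destroyed when a cell enters S phase, after phosphorylation by a cyclin-dependent kinase and recognition by the ubiquitin ligase subunit SKP2, so mRNA and protein need not follow each other through the cycle. Only mRNA was measured here.

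Of 57354 deposited cells, 33415 were kept, between 5648 and 12027 per library, and the kept cells held 130402319 UMIs. The libraries stood apart by replicate number, since 48.3% of cells in control 1 and 46.1% in cKO 1 exceeded the mitochondrial limit against 20.6% in control 2 and 23.1% in cKO 2. Pairs of libraries shared between 36 and 70 cell barcodes, of which 10 to 32 were kept. The kept cells fell into 22 clusters, named from lists of markers that hold none of the 3 genes. The classes were DN-like (674 cells), DPbla-like (5250), DPre-like (16530), DPsel-like (5342), CD4SP-like (1709), CD8SP-like (924) and mononuclear phagocyte (MPS)-like (1177), and the suffix is dropped below. They are rebuilt names, so a difference from the study's own clusters can come from the naming alone. Il2ra, which encodes the CD25 chain that marks early DN cells, was at 417.6 CPM in DN and at 3.45 CPM in DPbla. Of the DPbla cells, 32.9% lay in 1 cluster with a median of only 840 UMIs, and these held 6.47% of the UMIs of the class.

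The Rag genes lie next to each other and read towards each other, and Dntt lies on another chromosome. Rag1 (ENSMUSG00000061311) occupies chr2:101638282-101649501 on the minus strand of GRCm38 and has 1 annotated transcript of 2 exons. Rag2 (ENSMUSG00000032864) occupies chr2:101624718-101632529 on the plus strand, with transcripts of 2 to 3 exons. The ends of both genes are 5752 bp apart and their starts 24783 bp. Dntt (ENSMUSG00000025014) occupies chr19:41029275-41059525 on the plus strand, with transcripts of 11 to 12 exons. The gene model B230118H07Rik on the minus strand spans both Rag genes and shares 80 of the 6608 exonic bases of Rag1 and 208 of the 3424 exonic bases of Rag2, so UMIs in these stretches could be assigned differently.

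The 3 promoters are shown because all 3 genes are high in DP cells before selection, and none of the searched motifs was found in more than 1 of them. Each sequence is the RefSeq window from 250 bases before to 50 bases after the gene's start in GRCm38.p6, read 5′ to 3′ along the gene, and the RefSeq starts of Rag1 and Rag2 lie 31 and 6 bases upstream of the GENCODE starts given above. The windows are chr2:101649483-101649782 (minus strand) for Rag1, chr2:101624462-101624761 (plus strand) for Rag2 and chr19:41029025-41029324 (plus strand) for Dntt, and capitals mark the motifs found on either strand.
Rag1: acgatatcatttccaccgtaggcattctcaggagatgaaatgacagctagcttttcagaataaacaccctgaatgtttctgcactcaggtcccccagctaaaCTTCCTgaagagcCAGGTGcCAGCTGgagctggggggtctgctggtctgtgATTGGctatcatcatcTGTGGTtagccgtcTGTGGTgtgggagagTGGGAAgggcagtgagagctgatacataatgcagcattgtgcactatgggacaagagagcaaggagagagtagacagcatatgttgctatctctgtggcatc
Rag2: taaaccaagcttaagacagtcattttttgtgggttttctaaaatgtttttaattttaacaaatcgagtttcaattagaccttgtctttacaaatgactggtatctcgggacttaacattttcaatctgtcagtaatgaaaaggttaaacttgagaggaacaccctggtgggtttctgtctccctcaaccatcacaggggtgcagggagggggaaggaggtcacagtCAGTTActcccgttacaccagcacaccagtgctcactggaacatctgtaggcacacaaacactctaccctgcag
Dntt: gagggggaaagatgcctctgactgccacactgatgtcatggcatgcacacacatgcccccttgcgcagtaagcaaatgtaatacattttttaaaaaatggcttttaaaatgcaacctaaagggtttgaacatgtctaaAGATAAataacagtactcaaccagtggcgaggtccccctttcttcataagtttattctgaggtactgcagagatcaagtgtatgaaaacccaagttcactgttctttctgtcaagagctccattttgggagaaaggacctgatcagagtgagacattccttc

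The Rag1 window held 6 of the 11 motifs searched and the Rag2 and Dntt windows 1 each. Rag1 had 1 E box CAGCTG (found in 16.3% of 32851 mouse promoter windows), 1 E box CAGGTG (20.2%), 2 RUNX sites TGTGGT (16.8%), 1 ETS core AGGAAG (35.4%), 1 Ikaros core TGGGAA (25.6%) and 1 NF-Y box CCAAT (37.4%). Rag2 had 1 MYB site TAACTG (10.1%), and Dntt had 1 GATA site AGATAA (11.2%). The TCF and LEF core CTTTGA (16%), the SP1 core GGGCGG (35.7%) and the TATA box TATAAA (13.6%) were in none of these 3 windows. The marked sites do not overlap each other. The windows held 50%, 43% and 42.3% G and C against a median of 52.7% over all windows, and 3, 3 and 2 CpG against a median of 7. A match of 5 or 6 letters describes the sequence and not a bound site.

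All 3 mRNAs had their highest mean CPM in DPre and a lower one after selection, but they differed before it. Levels are the summed UMIs of a gene as a part of all UMIs of the class in a library, in CPM, and since each transcript is counted at its end no length correction applies. Rag1 in DPre was at 2483.1 and 2053.7 CPM in the controls and at 1965.5 and 2087.1 CPM in the cKO libraries, a mean of 2147.4 ± 229.6 CPM (SD, n = 4). The mean was 451.9 ± 97.8 CPM in DN, 619.2 ± 121.7 CPM in DPbla and 201 ± 39.2 CPM in DPsel. Every DPre library lay above every library of the other stages, while the DN and DPbla libraries overlapped, with 383.6 to 597 CPM in DN and 509.5 to 783.9 CPM in DPbla. The mature classes were lowest, at 107.9 ± 41.6 CPM in CD4SP and 78.5 ± 29.7 CPM in CD8SP, and these overlapped.

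Rag2 had the same order over the DN and DP stages at a lower level. In DPre it was at 230.4 and 195.5 CPM in the controls and at 233.8 and 221.6 CPM in the cKO libraries (220.3 ± 17.3 CPM). DPbla followed with 122.3 ± 28.1 CPM and DN with 69 ± 7.13 CPM, and the lowest DPbla library, at 100.1 CPM, lay above the highest DN library, at 76.3 CPM. DPsel was at 29.5 ± 3.95 CPM, and CD4SP and CD8SP overlapped at 12.6 and 13 CPM.

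Dntt was nearly as high in DN as in DPre. The DN libraries stood at 1616.0 and 1603.3 CPM in the controls and at 1324.2 and 1278.5 CPM in the cKO mice, and the DPre libraries at 1543.1, 1545.5, 1502.6 and 1424.5 CPM in the same order. These ranges overlapped. DPbla lay below DPre within each library, with 1284.8, 1236.1, 1097.4 and 1053.4 CPM, and DPsel was at 280.4 ± 28.3 CPM.

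**Figure D1:**
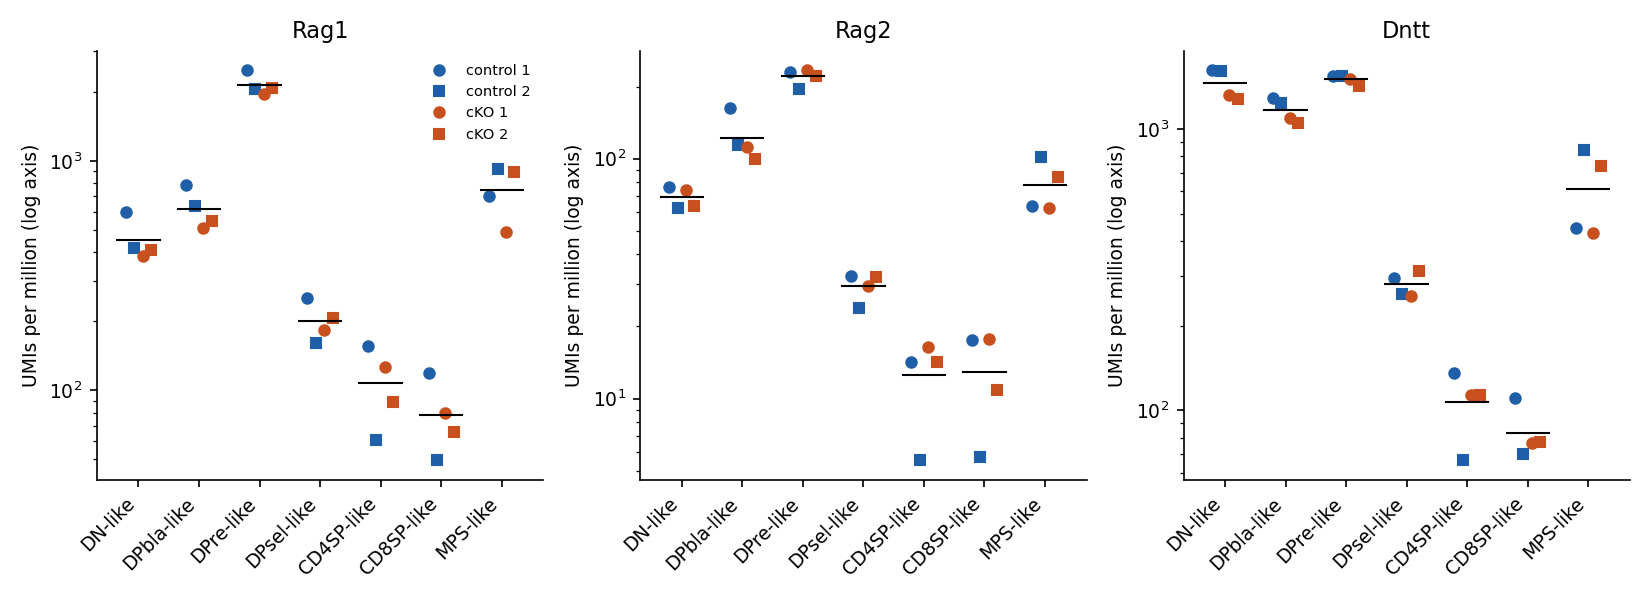
Level of Rag1, Rag2 and Dntt in CPM (log axis) in each thymocyte class, 1 point per library with the mean of the 4 libraries as a bar. Rag1 and Rag2 peaked in DPre, at means of 2147.4 and 220.3 CPM, whereas Dntt was at 1455.5 CPM in DN and 1503.9 CPM in DPre.

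The balance of the genes therefore shifted between stages. For each Dntt UMI there were 0.31 ± 0.0467 Rag1 UMIs in DN, 0.527 ± 0.0608 in DPbla and 1.43 ± 0.14 in DPre, and these 3 ranges did not overlap. In DPsel the ratio was 0.715 ± 0.103. For each Rag2 UMI there were 5.1 ± 0.505 Rag1 UMIs in DPbla and 9.78 ± 1.09 in DPre, so within DP cells Rag1 differed more between the stages than Rag2. The difference between DPre and DPbla was 3.17 to 3.86-fold for Rag1, 1.41 to 2.21-fold for Rag2 and 1.20 to 1.37-fold for Dntt within libraries. No test was run between classes, because cells were sorted into them by their own transcriptomes.

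The depth of the cells entered these comparisons. The DPbla clusters other than the shallow one had higher median UMIs than the DPre clusters in each library, and counted as UMIs per cell the order changed for the genes other than Rag1: Rag1 was at a mean of 4.12 UMIs per DPbla cell and 6.11 per DPre cell, Rag2 at 0.815 and 0.626, and Dntt at 7.73 and 4.27. DN cells held 4.09 Rag1, 0.625 Rag2 and 13.2 Dntt UMIs. Per cell, DPre exceeded DPbla in 4 of 4 libraries for Rag1 and in 0 of 4 for Rag2 and Dntt.

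Phagocytes, which should lack all 3 genes, were taken as a background, and it is a high one. MPS held a mean of 1.51 Rag1 UMIs per droplet, against 0.593 in CD4SP, 0.684 in CD8SP, 0.741 in erythroid and 0.754 in γδ T cells. Cd8b1, which encodes a chain of the CD8 coreceptor, was at 1112.3 CPM in MPS and 2626.6 CPM in DPre. Whether the MPS UMIs of these genes are free RNA alone was not tested. MPS cells, with a median of 868 to 1714 UMIs per library, were at 750.5 ± 200.1 CPM for Rag1, 77.9 ± 18.9 CPM for Rag2 and 613 ± 209 CPM for Dntt. In cells thinned at random to 1000 UMIs, 25.8 to 51.1% of MPS cells had a Rag1 UMI, against 34.1 to 50.7% of DN, 37.4 to 49.9% of DPbla and 82.6 to 88.4% of DPre cells. Every DPre share was above the background. The DN shares were above the MPS share of their own library in control 1 (50.7 against 37.3%) and cKO 1 (37.5 against 25.8%) and below it in control 2 (37.3 against 51.1%) and cKO 2 (34.1 against 49.8%), and DPbla shares split in the same way. CD8SP cells, which are deeper than MPS cells with a median of 6196 to 9633 UMIs, had a Rag1 UMI in only 6.82 to 10.3% of thinned cells. Counted per droplet before thinning, MPS held 0.612 to 2.22 Rag1 UMIs and CD8SP 0.442 to 1.16, against 3.35 to 5.47 in DN and 3.27 to 5.63 in DPbla, so every DN and DPbla library lay above every MPS and CD8SP library. Without thinning, 76.2 to 90.4% of DN cells had a Rag1 UMI, but those cells are deeper, with a median of 8439 UMIs. The unthinned share in MPS was 33.1 to 49.2%.

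Dntt stood above the MPS shares in DN and in both earlier DP classes. A Dntt UMI was found in 69 to 80.8% of thinned DN cells, 63.1 to 66.4% of DPbla and 72.6 to 75.4% of DPre cells, against 27 to 50.2% of MPS cells. For Rag2 the shares were 17.2 to 20.3% in DPre and 10 to 13.4% in DPbla, against 4.9 to 11.5% in MPS and 0.746 to 2.29% in CD8SP. Per droplet, Rag2 was at 0.597 to 1.17 UMIs in DPbla, 0.520 to 0.699 in DN, 0.0780 to 0.246 in MPS and 0.0507 to 0.171 in CD8SP. DPbla and DN lay above both by this count, whereas the thinned Rag2 share of DN, 1.37 to 7.43%, overlapped that of MPS. DPsel cells did not stand clear of MPS. Their thinned shares were 14.7 to 22.5% for Rag1, 2.63 to 3.81% for Rag2 and 22.0 to 25.1% for Dntt, below those of MPS and above those of CD8SP, and per droplet they overlapped MPS for all 3 genes, with 0.661 to 1.26 Rag1, 0.0984 to 0.161 Rag2 and 1.04 to 1.46 Dntt UMIs. CD4SP cells, with 3.94 to 12.1% for Rag1, were below the MPS share, so their Rag1 UMIs are not read as expression.

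Within DPbla the clusters led by different cycle genes differed in all 3 mRNAs. The cluster led by Cenpf, Cdc20 and Ccnb2, genes of mitosis, was at 1370.2 ± 99.5 CPM for Rag1, 270.3 ± 39.3 CPM for Rag2 and 1826.7 ± 114 CPM for Dntt. The cluster led by Hells, Cdc6 and Dtl, genes of DNA replication, was at 459 ± 108 CPM for Rag1, 86.2 ± 19.3 CPM for Rag2 and 1147.6 ± 138 CPM for Dntt. The cluster led by Mki67 and Top2a, which mark cycling cells, resembled the second in Rag1 (461.7 ± 67.6 CPM) and Rag2 (96.2 ± 12.5 CPM). The 4 libraries of the mitotic cluster were each above the 4 libraries of the other clusters for all 3 genes, and for Rag2 and Dntt its mean also exceeded the 220.3 and 1503.9 CPM of DPre.

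A second axis was set without clusters. Each DP cell was thinned to 1000 UMIs and the UMIs of 97 S and G2/M genes were counted, none of which is Rag1, Rag2 or Dntt. Rag1 was highest in the middle of this count. It was at 1017.7 ± 94.7 CPM in cells with 0 to 1 cycle UMIs, 1756.8 ± 259 CPM with 7 to 9, 496.4 ± 93 CPM with 20 to 39 and 645.2 ± 65.6 CPM with 40 or more. Rag2 followed at 122, 180.9, 110.1 and 140.3 CPM in the same bins. Dntt went from 827.4 ± 35.5 CPM at 0 to 1 to 1270.1 ± 70.1 CPM at 7 to 9 and was still at 1144.7 ± 46.3 CPM at 40 or more. Per cell, Dntt went from 3.16 to 10.7 UMIs between the first and last bin and Rag2 from 0.468 to 1.33, while Rag1 went from 3.9 to 6.04.

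**Figure D2:**
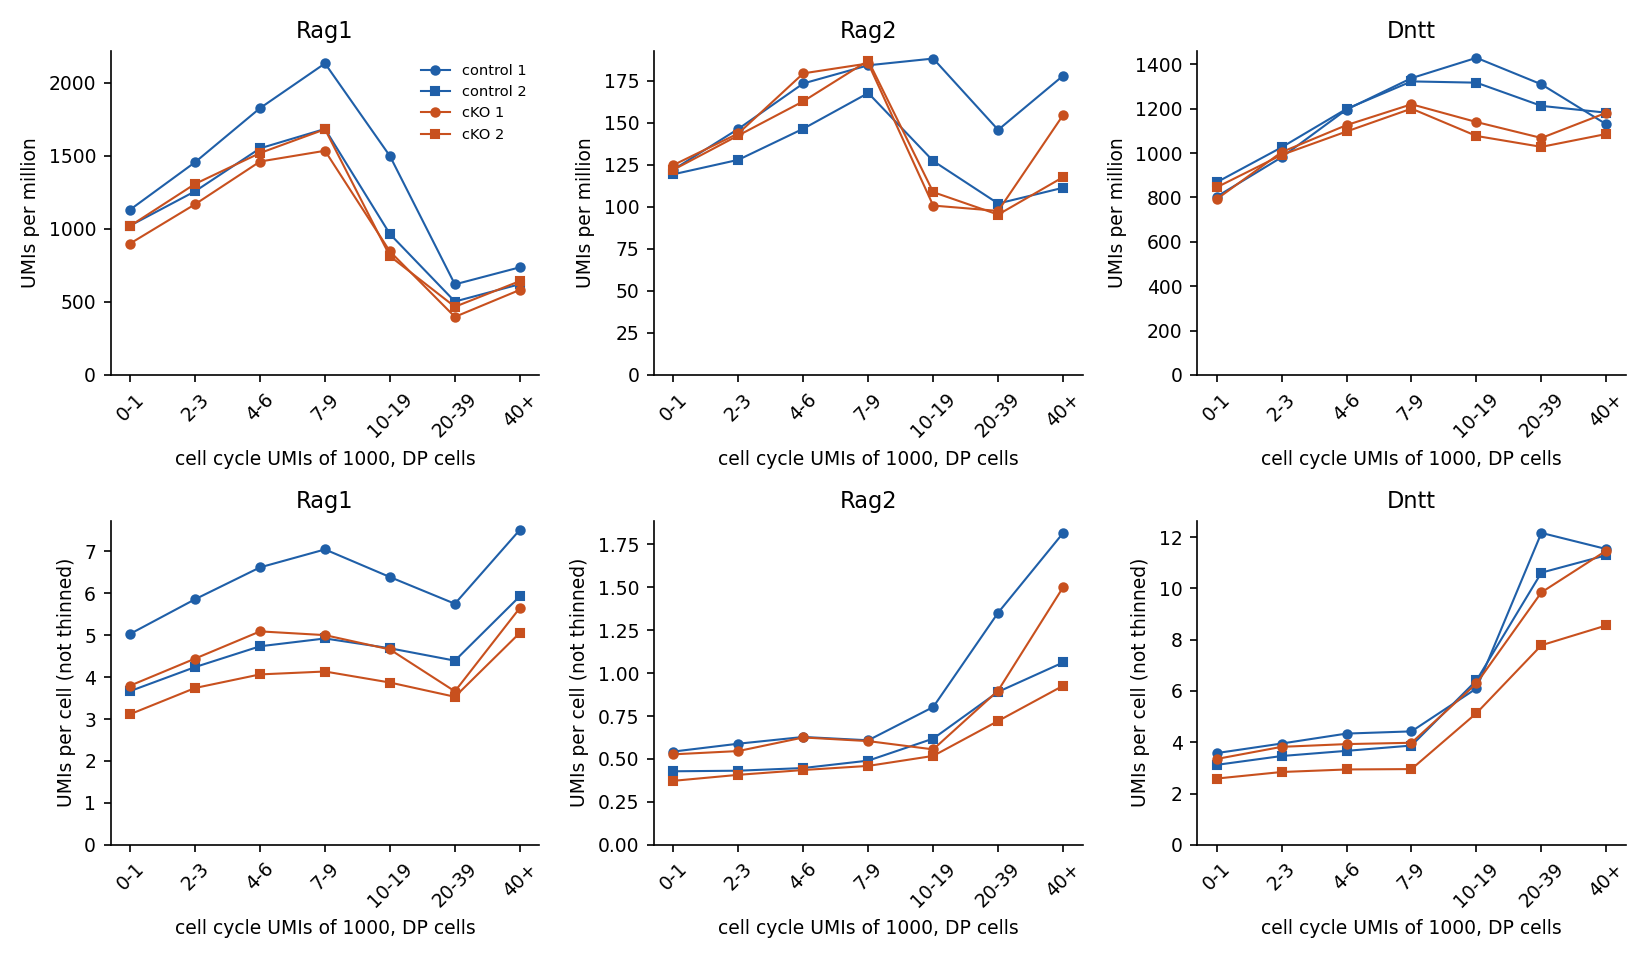
Level of the 3 genes in DP cells, in CPM in the upper row and in UMIs per cell in the lower, against the number of cell cycle UMIs in a cell thinned to 1000 UMIs, 1 line per library. Rag1 had a mean of 1756.8 CPM in the bin of 7 to 9 and 496.4 CPM in that of 20 to 39, while Dntt was at 1270.1 and 1154.6 CPM.

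Pooled over DPbla, DPre and DPsel, cycling DP cells (10 or more cycle UMIs) had fewer Rag1 and more Dntt CPM than resting DP cells (3 or fewer). Rag2 did not pass the test. The gates held 654 to 1981 cycling and 1163 to 2269 resting cells per library. Between 8.35 and 14% of the thinned DP cells lay near the cycling limit, with 8 to 11 cycle UMIs, and 24.1 to 31.4% at 3 to 4, the edge of the resting gate, so both gates are ranges and not cell types. The test was edgeR's quasi-likelihood F test on the sums of each gate with the library as a block, and it called 69.5% of all genes tested, so a call by itself says little.

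Resting cells held 1377.6, 1206.4, 1111.8 and 1250.2 Rag1 CPM in control 1, control 2, cKO 1 and cKO 2, and cycling cells 833.3, 649.2, 556.3 and 612 CPM. The groups did not overlap, and the log2 fold change of cycling over resting was -0.68 (SE 0.0572, adjusted p = 1.796e-09). Dntt was at 938.5, 992.2, 960.2 and 962.8 CPM in resting and at 1278.2, 1227.8, 1113.0 and 1055.5 CPM in cycling cells. All cycling libraries lay above all resting ones (log2 fold change 0.51, SE 0.0578, adjusted p = 1.553e-07). Rag2 was at 140.5, 126.1, 139.7 and 138.4 CPM in resting and at 164.3, 110.8, 111.6 and 104.2 CPM in cycling cells, so control 1 went up and the others down. Its log2 fold change was 0.06 (SE 0.0718, adjusted p = 0.4998). Cycling cells are deeper, and per cell the direction for Rag1 was the opposite. Resting cells held 0.845 to 0.979 times the Rag1 UMIs of cycling cells, 0.459 to 0.613 times the Rag2 UMIs and 0.367 to 0.423 times the Dntt UMIs, so all 3 were higher per cycling cell in 4 of 4 libraries. These fold changes use TMM factors, and scaling by library size alone moved all 3 by -0.24, which gave Rag2 a value of -0.18 and an adjusted p of 0.03576. Over 13 alternatives the adjusted p ran from 3.676e-34 to 0.01893 for Rag1, from 2.445e-12 to 0.6649 for Rag2 and from 1.128e-22 to 0.09825 for Dntt.

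The make-up of the resting gate moved with these values. DPsel cells, whose Rag levels are low, made up 31.4 to 36.5% of it and 2.14 to 3.31% of the cycling gate, while DPbla made up 78.8 to 82.3% of the cycling gate. With DPsel cells left out, a comparison chosen after the data were seen in which 70.8% of genes were called, the Rag1 value was -1.36 (SE 0.0549, adjusted p = 9.411e-26). Rag2 then fell by 0.59 (SE 0.0585, adjusted p = 2.445e-12), and the Dntt value was -0.10 (SE 0.0542, adjusted p = 0.09825). With every DP cell under the cycling limit counted as resting, where 70.8% of genes were called, Rag1 fell by 0.90, Rag2 was at -0.11 (adjusted p = 0.185) and Dntt rose by 0.35. A gate of 6 or more against 1 or fewer cycle UMIs, which widened the cycling and narrowed the resting side, called 37.1% of genes and turned Rag1 to 0.15 (adjusted p = 0.01893) and raised Rag2 by 0.29 (adjusted p = 6.273e-04). In that gate 51.3 to 58.4% of the cycling cells were DPre and 35.4 to 43.9% of the resting cells DPsel. The sign of Rag1 thus turned with this gate, while Dntt rose under it too (0.60, adjusted p = 6.387e-16).

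Within the cycling DP cells, Rag1 and Rag2 were lower where S genes led than where G2/M genes led. Rag1 averaged 443.7 CPM in the former and 706.2 CPM in the latter, and the S to G2/M ratio was 0.598 to 0.649 over the libraries. Rag2 averaged 72.6 and 132.6 CPM, with ratios of 0.481 to 0.632. Dntt was at 1063.3 and 1191.2 CPM, with ratios of 0.808 to 0.996. All 12 ratios of CPM were under 1, and they are given as a description. Per cell the Dntt ratio was 0.922 to 1.14 and above 1 in 3 of 4 libraries. Rag1 averaged 560.9 CPM in resting and 152.7 CPM in cycling DN cells, and the resting gate held 2.59 to 4.88 times the Rag1 CPM of the cycling gate, whose 10, 11, 29 and 54 cells are few.

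Co-detection was asked in the same thinned cells: how often 2 of the genes were seen in 1 cell, against the product of their shares. The ratio has a ceiling, reached when every cell with the rarer gene also has the commoner one. In DPre cells, where Rag1 and Dntt are seen in most cells, that ceiling was only 0.18 to 0.28 on the log2 scale for pairs with Rag1 and 0.41 to 0.46 for Rag2 with Dntt, so the measure could hardly move there. The mean log2 ratio of observed to expected cells was 0.03 ± 0.0199 for Rag1 with Rag2, 0.0065 ± 0.0065 for Rag1 with Dntt and 0.02 ± 0.0153 for Rag2 with Dntt (n = 4). All 3 mRNAs were seen in 10.7 to 14.1% of the thinned DPre cells and none in 3.06 to 3.84%.

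In DPsel cells the 3 mRNAs were seen together more often than their shares give. As given above, these cells did not stand clear of MPS, so the ratio is of UMIs that those measures do not tell from the MPS background. The log2 ratio was 1.33 ± 0.274 for Rag1 with Rag2, 0.92 ± 0.202 for Rag1 with Dntt and 1.05 ± 0.0752 for Rag2 with Dntt. Cd8a with Cd8b1, the chains of the CD8 coreceptor, gave 0.64 ± 0.0471. The ceilings were 2.15 to 2.77, 1.99 to 2.19, 1.99 to 2.19 and 1.18 to 1.32 for these 4 pairs, far above those of DPre, so values are not compared between the classes. None of the 3 was seen in 60.5 to 69.5% of DPsel cells. The clusters pooled in DPsel differ in level, with Rag1 at 343.5 CPM in the cluster led by Cd5 and Egr1, at 107.8 CPM in that led by Itm2a and Il7r and at 114.9 CPM in that led by Xcl1 and Tnfrsf9. The part of this mixture in the ratio was not tested.

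In DPbla cells Rag1 with Rag2 gave 0.33 ± 0.182, with 0.12 and 0.23 in the controls and 0.43 and 0.52 in the cKO libraries, under ceilings of 1.002 and 1.17 in the controls and 1.42 and 1.38 in the cKO libraries. The cKO libraries were above the controls, but the exact 2-sided permutation test cannot go below p = 0.3333 with 6 regroupings of 2 against 2, which is the value it gave. Cd8a with Cd8b1 also lay higher in the cKO libraries without overlap (means of 0.11 and 0.20), as did Rag2 with Dntt (0.02 and 0.15), so the separation is not particular to Rag1 with Rag2. Rag1 with Dntt gave 0.11 ± 0.013 and Rag2 with Dntt 0.08 ± 0.12. In DN cells, Rag1 with Dntt was at 0.05 ± 0.0527, and 38.4 to 44.1% of the cells had Dntt alone of the 3.

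**Figure D3:**
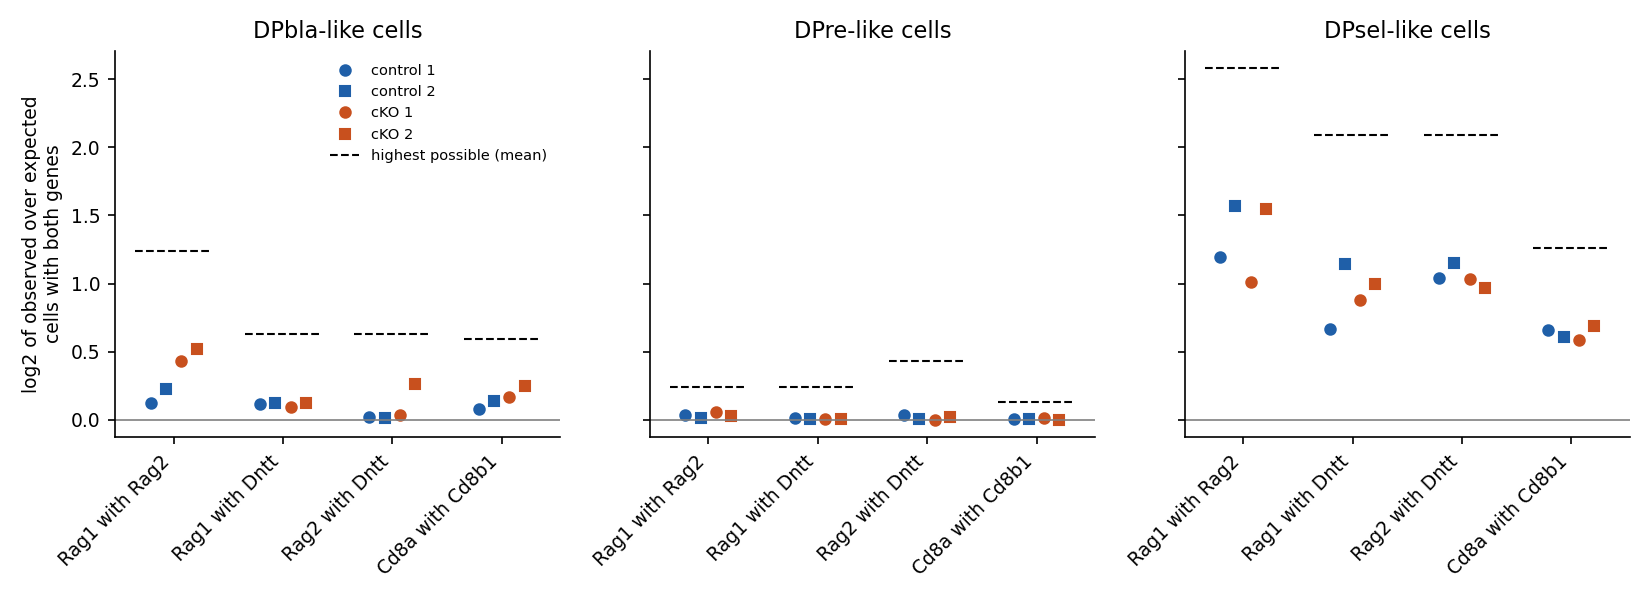
Log2 ratio of observed to expected cells with both genes of a pair, in cells thinned to 1000 UMIs, 1 point per library, by class, with Cd8a and Cd8b1 beside them and the mean of the highest possible ratio as a dashed line. The Rag and Dntt pairs lay near 0 in DPre, where the ceilings were 0.18 to 0.46, and between 0.92 and 1.33 on average in DPsel.

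The comparison of cKO with control libraries asked whether loss of Tox4, a nuclear protein, moved the recombinase genes at any stage. None of the 3 was called at an adjusted p under 0.05 in DN, DPbla, DPre, DPsel, all DP, resting DP, cycling DP, CD4SP, CD8SP or all kept cells (edgeR quasi-likelihood F test on summed UMIs with genotype as the only term). DESeq2 called none of them in these groups either, with no adjusted p given for Rag2 in CD8SP. Other alternatives did call 1 or 2 of the 3 in DN, DPbla, all DP, cycling DP, CD4SP and all kept cells. With the replicate number added as a block, edgeR called Dntt in DN and both Rag1 and Rag2 in DPbla and in cycling DP. It then also called Rag1 in all DP and in all kept cells. That fit called 1176 genes in DPbla, against 333 without the block. In the fit with genotype only, the share of all genes called was 0.0340%, 3.06%, 1.61%, 0.0465%, 5.71%, 0.635%, 2.53%, 0.369%, 0.297% and 2.65% in the groups in the order first listed. At an unadjusted p under 0.05 there were Rag1 and Dntt in DN, Rag1 and Rag2 in DPbla, Rag1 and Rag2 in cycling DP, and Rag1 in all DP and in all kept cells. The labels do not name the animals, which the study describes as pairs of mice, so p-values measure the spread between these libraries only.

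Among the DP stages Rag1 differed most in DPbla, without passing the test. Its level was 783.9 and 634.9 CPM in the controls and 509.5 and 548.5 CPM in the cKO libraries, which did not overlap. The log2 fold change of cKO over control was -0.37 (SE 0.109, adjusted p = 0.07838). Over 14 alternatives the adjusted p ran from 3.174e-04 to 0.5494, and it passed the threshold in 4 of them, the replicate block included. Leaving out control 2, the control nearer to the cKO libraries, gave -0.48 and an adjusted p of 0.0212, and leaving out control 1 gave -0.24 and 0.5494. Rag2 in DPbla was at 163.5 and 113.9 CPM in the controls and 111.9 and 100.1 CPM in the cKO libraries, a change of -0.33 (SE 0.13, adjusted p = 0.208). Without control 2 it was -0.54 with an adjusted p of 0.009467 and without control 1 -0.08 with 0.9162, and over the alternatives the adjusted p ran from 0.008387 to 0.9162. Dntt, whose DPbla values are given above, gave -0.18 (SE 0.103, adjusted p = 0.4259). All 3 genes were without overlap in DPbla, where 47.4% of all genes were, so the separation is no result about them.

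The make-up of DPbla differed between the groups as well. The mitotic cluster, high in all 3 mRNAs, gave 24.4 and 15.6% of the DPbla UMIs in the controls and 14.3 and 13.2% in the cKO libraries. The replication cluster, low in Rag1, gave 28.7 and 31.3% in the controls and 38.4 and 40.5% in the cKO libraries. Within the replication cluster Rag1 was at 572.6 and 526.4 CPM in the controls and at 343.2 and 392.5 CPM in the cKO libraries. Its log2 fold change there was -0.52 (SE 0.107, adjusted p = 0.01005), in a test added after the data were seen that called 1.83% of genes. It was the only call among 50 pairs of gene and cluster over 17 cluster fits, of which 35 pairs were lower in cKO, and no correction over the 17 fits was made. In the mitotic cluster Rag1 was at 1444.7 and 1415.4 CPM against 1223.8 and 1396.7 CPM (-0.12, adjusted p = 0.8111).

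**Figure D4:**
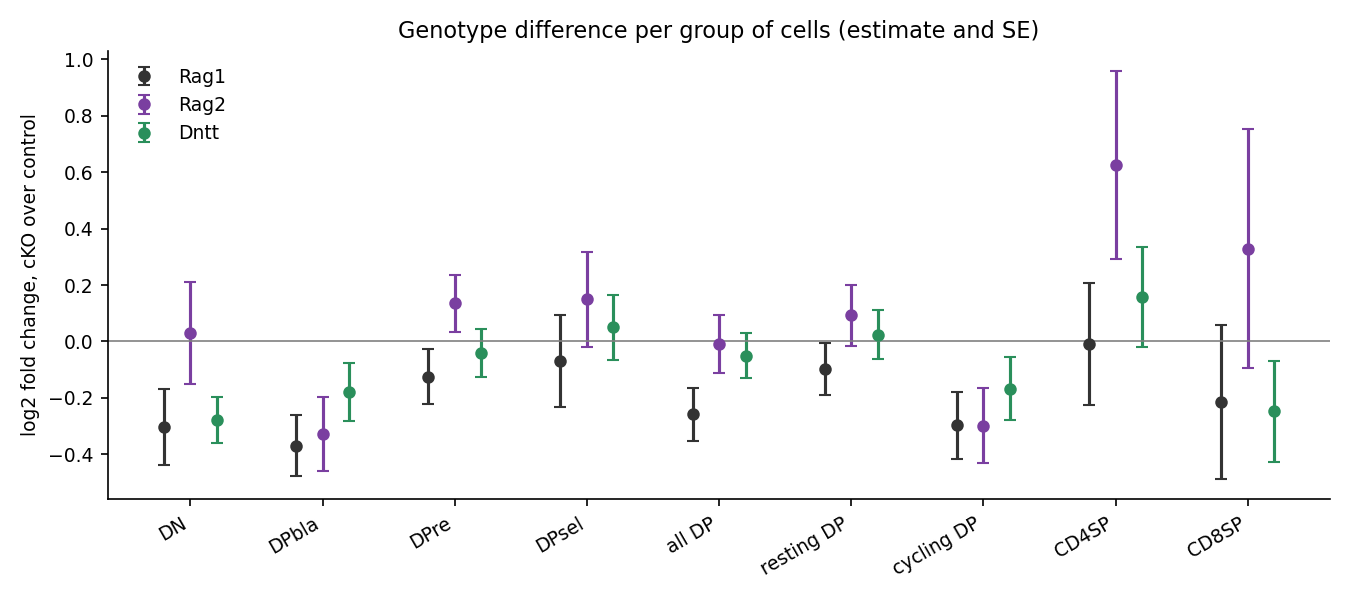
Log2 fold change of cKO over control for Rag1, Rag2 and Dntt in each cell group, with bars of 1 standard error (edgeR, 2 libraries per group). No point passed an adjusted p of 0.05, and the Rag1 values in DPbla and DN were -0.37 and -0.30.

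At the peak stage the groups were closer. In DPre the Rag1 values, given above, overlapped, with a log2 fold change of -0.12 (SE 0.0974, adjusted p = 0.6022). Rag2 was at 0.14 (SE 0.102, adjusted p = 0.5848) and overlapped too. Dntt was at -0.04 (SE 0.0856, adjusted p = 0.8733) without overlap, as were 46.8% of all genes. In DPsel all 3 overlapped, against 38.2% of genes that did not, and in resting DP cells all 3 overlapped, against 41.2% that did not, with changes of -0.10 for Rag1, 0.09 for Rag2 and 0.02 for Dntt.

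In DN cells, which undergo β chain rearrangement, Rag1 was at 597 and 417 CPM in the controls and at 383.6 and 410.1 CPM in the cKO libraries. Its change was -0.30 (SE 0.136, adjusted p = 0.632), and without control 2 it was -0.54 with an adjusted p of 0.01461, the lowest of a range that reached 1 over the alternatives. Without control 1 it was -0.06 (adjusted p = 0.9742). The Dntt values of DN, listed above, gave -0.28 (SE 0.0819, adjusted p = 0.3906), and an adjusted p of 0.02997 with the replicate number as a block. Both were without overlap, as were 37.3% of all genes, and Rag2 was at 0.03 with overlap. Only 3 of 8811 genes were called in DN, where the libraries held 73, 118, 160 and 323 cells. In all DP, Rag1 was at 1473.8 and 1224.1 CPM in the controls and at 1040.5 and 1135.7 CPM in the cKO libraries (-0.26, adjusted p = 0.1365). Without control 2 that value was -0.38 with an adjusted p of 0.01739 and without control 1 -0.14, in a range of 0.003175 to 0.6226. DPbla cells, lower in Rag1 than DPre, made up 15.5 and 14.5% of the DP cells in the controls and 25.4 and 21.2% in the cKO libraries, and the part of this make-up in the all DP value was not tested. In CD4SP, where the genes are at background, leaving out control 1 turned Rag1 from -0.0096 to 0.78 (adjusted p = 0.01483) and Dntt from 0.16 to 0.72 (adjusted p = 0.02754), and over the alternatives both adjusted p reached 0.9997.

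In cycling DP cells the 3 genes stood at -0.30 (Rag1, SE 0.118, adjusted p = 0.2191), -0.30 (Rag2, SE 0.133, adjusted p = 0.2879) and -0.17 (Dntt, SE 0.111, adjusted p = 0.5198). These come from the fit with genotype only, and with the replicate number as a block Rag1 and Rag2 were called. Rag1 and Dntt were without overlap, as were 46.1% of genes. Without control 2, Rag2 was at -0.52 with an adjusted p of 0.01348, and without control 1 at -0.03 with 0.979, the highest over the alternatives. Whether the genotype difference itself differed between cycling and resting DP cells was tested as an interaction, which called 0.361% of genes and none of the 3. Rag2 was at -0.37 (SE 0.108, unadjusted p = 0.001132, adjusted p = 0.1326), and without control 2 at -0.56 with an adjusted p of 0.003163 and without control 1 at -0.20, against up to 0.9276 under the other alternatives. Rag1 was at -0.19 (adjusted p = 0.6861) and Dntt at -0.19 (adjusted p = 0.7015).

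Genes whose products work with or on the recombinase were read from lists of the pathway. Of 9 genes of RAG protein turnover 8 were higher in cycling than resting DP cells and 0 lower. They included Ccna2, which encodes cyclin A2 (log2 fold change 4.93), Cks1b, a cofactor of SKP2 (3.38), and Skp2 (2.71). Cks1b is also 1 of the cycle genes that set the gate, so its value is no finding, and without it 7 of 8 were higher. Ccna2 and Skp2 are cell cycle genes as well, and the gate was set on such genes. Their higher values follow from the gate and are no separate finding. Of all 11365 genes tested, 3861 were higher. Of the 4 RAG cofactors and TdT-binding proteins 3 were higher. Hmgb2 is among them at 4.42 but is also a gate gene, so its value is no finding. The others were Hmgb1, which bends the recombination signal, at 1.75 and Dnttip1 at 0.23.

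Of 19 repair factors that join the cut ends, 11 were higher in cycling cells, 5 lower and 3 not called. H2afx, the histone marked at breaks, was at 3.37, Nbn, of the break-sensing MRN complex, at 2.47 and Rnf168, a ubiquitin ligase, at 1.62. The lower ones included Poll and Polm, relatives of TdT that fill in ends, at -1.35 and -1.04, and Dclre1c, which encodes the hairpin-opening nuclease Artemis, at -0.62. Of 14 regulators of Rag and Dntt transcription 2 were higher and 11 lower. Tcf3, which encodes the E2A proteins, rose by 0.46 and Tcf7 by 0.13, while Tcf12, which encodes the E protein HEB and was picked after its value was seen, fell by 0.14. Id2, an inhibitor of E proteins, was at -2.58, Lef1 at -1.17 and Foxo1 at -0.83. Id2 is also 1 of the markers that name DPsel, at 169.2 CPM there and 16.0 CPM in DPre, and without DPsel it was at -0.33, with Lef1 at -0.31 and Foxo1 at -0.55. Over all genes tested 3861 were higher and 4037 lower, with a median of -0.04. With scaling by library size alone 2649 were higher and 5828 lower, with a median of -0.28. On that scale 6 turnover genes, 2 cofactors, 8 repair factors and 1 regulator were higher, 7 repair factors and 12 regulators were lower, and Tcf7 (-0.10) and Dnttip1 (-0.0061) were no longer called.

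Without DPsel, where 3811 of 10896 genes were higher and 3900 lower, 2 regulators were higher and 10 lower. Gata3 turned from -0.42 to 0.42, and Tcf7 was at -0.07 and not called. Repair factors were then 9 higher and 6 lower, with Poll not tested, and Xrcc6, which encodes the Ku70 end-binding protein, turned from 0.44 to -0.15. Of the 3 neighbours of the Rag locus, Prr5l and B230118H07Rik were lower in cycling cells with DPsel included and Traf6 was not called. Without DPsel B230118H07Rik was still lower, Traf6 was not called and Prr5l was too low to be tested.

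**Figure D5:**
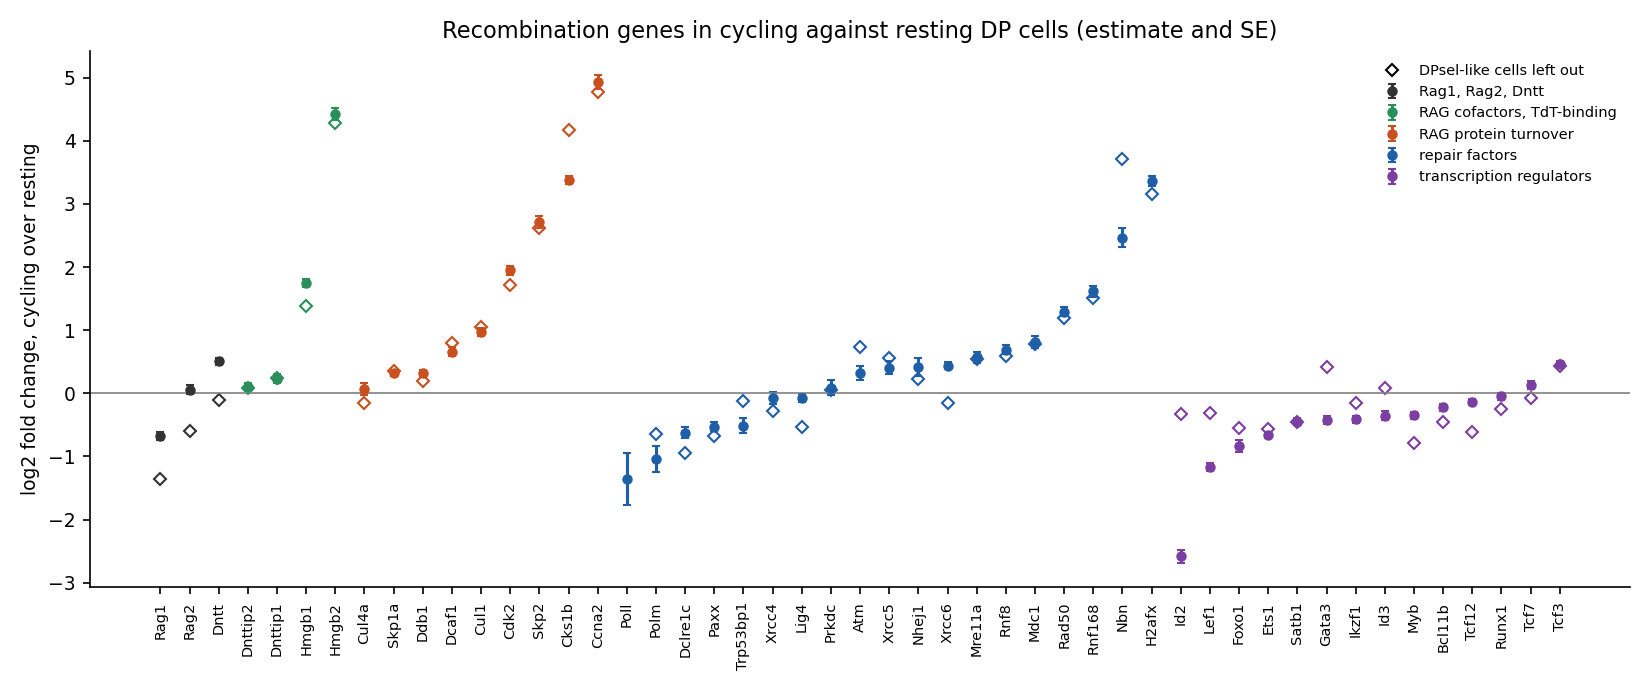
Log2 fold change of cycling over resting DP cells for each gene of the lists beside Rag1, Rag2 and Dntt (edgeR, 4 libraries, library block), as filled points with bars of 1 standard error, and as open diamonds with DPsel cells left out. Of the RAG turnover genes other than the gate gene Cks1b, 7 of 8 were called higher, among them the cell cycle genes Ccna2 and Skp2. Of the regulators 11 of 14 were called lower, against 3861 higher and 4037 lower of 11365 genes tested.

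Between the genotypes few list genes were called. In all DP, where 5.71% of genes were called, Satb1, a chromatin organiser of thymocytes, was at -0.32, the repair factor Paxx at -0.37 and B230118H07Rik at -0.56. Higher there were Rad50 (0.49), Rnf168 (0.46), Skp2 (0.53) and Cks1b (0.38), and Skp2 was also higher in all kept cells (0.51). The make-up of DP moved with these values. Cycling cells were 15.2 and 13.2% of the thinned DP cells in the controls and 22.9 and 21.2% in the cKO libraries, and each of the 7 genes differed in the same direction between cycling and resting DP cells as between cKO and control. None of the 7 was called within DPbla, DPre, DPsel, resting DP or cycling DP. The part of the make-up in these calls was not tested. In the interaction Ccna2 was lower at -0.90 (adjusted p = 0.0126).

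The genes most like the 3 were ranked by Pearson's r of log2 CPM over 24 points, 6 αβ T cell classes in 4 libraries, among 6081 genes. The points share libraries and class definitions, so r is a description with no p. Rag1 was closest to Rag2 (r = 0.978), Fbxl12 (0.978), Dhrs3 (0.976), Ilvbl (0.972) and Endou (0.971). Rag2 was closest to Endou (0.981), Rag1 (0.978), Gm37065 (0.978), Dhrs3 (0.973) and Ifngr1 (0.973). Dntt was closest to Desi1 (0.992), Dgcr6 (0.988), Arpp21 (0.988), Dgkeos (0.986) and Rapgef3 (0.985). Its r with Rag1 was 0.910 and with Rag2 0.935.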

How the data were processed

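The authors deposited raw UMI counts per gene and cell, 1 filtered matrix per library, made with cellranger 6.1.1 on mm10, without normalization or pooling of libraries. Cells with under 200 genes, in the outer 2.5% of UMIs of their library at either end or with over 10% mitochondrial UMIs were left out, as in the study, and the 5% with the highest Scrublet doublet score (expected rate 8%) were removed per library. Counts were clustered (scanpy 1.11.5, leidenalg 0.10.2, Python 3.11.15) on 3000 variable genes that excluded Rag1, Rag2 and Dntt, with 30 components, 20 neighbours and resolution 1, and clusters were named from 12 marker lists. Where they were allowed, 2 of the 3 genes were among the variable genes. Unnamed clusters held 4.43% of kept cells.

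UMIs were summed per library and class (30 cells or more per library) and tested with edgeR 4.0.16 (R 4.3.3; TMM, filterByExpr, quasi-likelihood F test) on all genes, adjusted by Benjamini-Hochberg and called under 0.05. Genotype was the single term, and cycling against resting sums had the library as a block. SEs are approximate. DESeq2 1.42.0 and other settings were alternatives. The edgeR procedure was tested on simulated data, but no outcome is given here and none is relied on. Intervals of counts cover counting error only. Named genes are the 3 genes, Tox4 and up to 3 called genes per list and direction by size of change, the 5 most similar genes, and cluster-leading genes. Gata3, Xrcc6, Tcf12 and Traf6 were named after their values were seen. A gene of the regulator list is not reported here. The genes and lists were chosen with earlier results of these data known. Library depth was 42716798 to 62007453 UMIs before filtering. Classes of fewer cells are less precise.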

Additional observations from a re-analysis of the deposited data

How the results depend on the processing

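Under the alternatives to the 36 tested values of the 3 genes, 397 values kept sign and side of the threshold, 19 moved past it and 43 turned sign. The causes were not tested. The counts of genes called were 3 in DN, 333 in DPbla, 189 in DPre, 5 in DPsel, 737 in all DP, 69 in resting DP, 275 in cycling DP, 34 in CD4SP, 27 in CD8SP, 368 in all kept, 7898 in cycling over resting DP and 41 in the interaction. Settings were changed 1 at a time, except that the gate of 6 or more against 1 or fewer moved both limits, and gates with DPsel left out or with all other DP cells as resting were chosen after seeing the data. The 5% mitochondrial limit gave no DN value, since the DN cluster then stayed unnamed. Without a filter no gene was called in CD4SP, where 702 genes had an unadjusted p under 0.05 with the filter (edgeR). The higher calls made up 63.1% of the calls in DPbla, 57.7% in DPre, 62.4% in all DP, 58% in resting DP and 74.1% in CD8SP, and 48.9%, 45.4%, 46.6%, 44.4% and 91.7% with library size as the only scaling. A count that rose or fell says nothing of which genes were called. DN held the fewest cells of the tested classes, 674. How the number of cells bears on the calls was not tested, and DPsel, with 5342 cells, gave 5 calls against 27 in CD8SP, with 924.

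Without a filter on low counts, the genes called numbered 78 in DN, 632 in DPbla, 623 in DPre, 164 in DPsel, 1341 in all DP, 210 in resting DP, 542 in cycling DP, 0 in CD4SP, 121 in CD8SP and 1136 in all kept. The log2 change passed the threshold at -0.36 for Rag1 in DPbla, -0.27 for Rag1 in all DP and -0.27 for Rag1 in all kept. Without doublet removal, the genes called numbered 46 in DN, 27 in DPsel and 55 in CD4SP. Changes that turned sign were -0.0014 for Dntt in DPsel and 0.011 for Rag2 in all DP. At resolution 1.5, the genes called numbered 17 in DN and 2 in CD8SP. The signs that turned gave 0.0011 for Rag1 in DPsel. With library size as the only scaling, the genes called numbered 1 in DPsel, 36 in resting DP, 162 in cycling DP, 12 in CD8SP and 215 in all kept. The log2 change then passed at -0.42 for Rag1 in DPbla. Values of the other sign were -0.0058 for Dntt in resting DP, 0.0083 for Rag1 in CD4SP and -0.18 for Rag2 in cycling over resting DP. With DESeq2, the genes called numbered 203 in DPbla, 22 in DPsel, 42 in resting DP, 165 in cycling DP, 5 in CD4SP and 14 in CD8SP. With a mitochondrial limit of 5%, the genes called numbered 40 in DPbla, 90 in DPre, 29 in DPsel, 128 in all DP, 13 in resting DP, 5 in cycling DP, 86 in CD4SP, 3 in all kept and 1 in the interaction. The sign was turned at 0.038 for Dntt in DPre, -0.16 for Dntt in DPsel, 0.064 for Rag2 in all DP, 0.017 for Dntt in all DP, 0.046 for Rag1 in CD4SP, -0.29 for Dntt in CD4SP, 0.097 for Rag2 in all kept and 0.051 for Dntt in all kept. With a mitochondrial limit of 5%, the co-detection ratio was 0.13 for Rag1 with Dntt in DPbla, 0.066 for Rag1 with Rag2 in DPre and 0.059 for Rag2 with Dntt in DPre. With the 3 genes allowed among the variable genes, the genes called numbered 14 in DPsel and 49 in CD8SP. Turned in sign were 0.0063 for Rag1 in DPsel and 0.0027 for Rag1 in CD4SP. With the gate of 6 or more against 1 or fewer cycle UMIs, the genes called numbered 9 in resting DP, 578 in cycling DP, 4150 in cycling over resting DP and 15 in the interaction. Past the threshold were then 0.29 for Rag2 in cycling over resting DP. Of the other sign were 0.15 for Rag1 in cycling over resting DP. With DPsel cells left out, the genes called numbered 135 in resting DP and 4 in the interaction. Reversed values were -0.0069 for Dntt in resting DP, -0.59 for Rag2 in cycling over resting DP and -0.099 for Dntt in cycling over resting DP. With all DP cells under the cycling limit as resting, the genes called numbered 21 in the interaction. A turned sign gave -0.11 for Rag2 in cycling over resting DP. With DESeq2 size factors in edgeR, the genes called numbered 68 in the interaction. With thinning to 2000 UMIs, the co-detection ratio was 0.052 for Rag1 with Dntt in DPbla, 1.03 for Rag1 with Rag2 in DPsel, 0.61 for Rag1 with Dntt in DPsel and 0.85 for Rag2 with Dntt in DPsel.

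Leaving out 1 library at a time gave -0.54 to -0.055 for Rag1 in DN, -0.11 to 0.15 for Rag2 in DN, -0.48 to -0.24 for Rag1 in DPbla, -0.54 to -0.082 for Rag2 in DPbla, -0.25 to 0.0060 for Rag1 in DPre, -0.090 to 0.0067 for Dntt in DPre, -0.36 to 0.27 for Rag1 in DPsel, -0.060 to 0.36 for Rag2 in DPsel, -0.10 to 0.18 for Dntt in DPsel, -0.14 to 0.12 for Rag2 in all DP, -0.38 to -0.14 for Rag1 in all DP, -0.025 to 0.075 for Dntt in resting DP, -0.52 to -0.028 for Rag2 in cycling DP, -0.53 to 0.78 for Rag1 in CD4SP, -0.26 to 0.72 for Dntt in CD4SP, -0.72 to 0.52 for Rag1 in CD8SP, -0.54 to 0.10 for Dntt in CD8SP, -0.29 to 1.31 for Rag2 in CD8SP, -0.13 to 0.11 for Rag2 in all kept, -0.064 to 0.14 for Rag2 in cycling over resting DP and -0.56 to -0.20 for Rag2 in the interaction, as log2 changes. The genes called then ranged from 3 to 67 in DN, 182 to 530 in DPbla, 51 to 330 in DPre, 12 to 67 in DPsel, 33 to 115 in resting DP, 170 to 542 in cycling DP, 33 to 76 in CD4SP, 10 to 70 in CD8SP, 173 to 595 in all kept and 9 to 90 in the interaction. A lone library of a group is assumed to vary like the libraries of the other group.

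Libraries of the 2 groups share replicate numbers, but nothing in the labels ties same-numbered mice to each other, and with 2 numbers the pairing cannot be settled from the data. Deviations of same-numbered libraries correlated at 0.0965 in DN to 0.25 in all DP. With the replicate number as a block, the genes called numbered 103 in DN, 1176 in DPbla, 1089 in DPre, 282 in DPsel, 2102 in all DP, 445 in resting DP, 1000 in cycling DP, 112 in CD4SP, 147 in CD8SP and 2008 in all kept. Values past the threshold were -0.28 for Dntt in DN, -0.36 for Rag1 in DPbla, -0.31 for Rag2 in DPbla, -0.25 for Rag1 in all DP, -0.29 for Rag1 in cycling DP, -0.28 for Rag2 in cycling DP and -0.27 for Rag1 in all kept. The sign turned, giving 0.039 for Rag1 in CD4SP.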
